A study of Aspergillus oryzae with 20 samples.

Results

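Among the genes that Aspergillus oryzae transcribed on wheat bran, 200 held the steadiest messenger RNA level over 20 libraries, and they are described here with the values that bear on their use as reference genes. They were chosen from 12074 listed genes in 2 steps. A mean of at least 20 RPKM (reads per kilobase, scaled to the mapped reads of the library) over the 20 libraries was required, which 7134 genes met. These were then ranked by the standard deviation (SD) of log2(RPKM + 1) over the 20 libraries, and the 200 with the lowest SD, 2.80% of those ranked, were taken. The SD therefore chose the members, and every SD, range and strain mean over these libraries given for them is a description without a test.

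A. oryzae is the koji mould, a filamentous fungus grown on steamed grain or bran for its secreted enzymes. The 4 strains derive from strain RIB40, and each was sequenced in 5 libraries: a deletion control (pyrG deleted), ΔadmA (pyrG and admA deleted), ΔadmB (pyrG and admB deleted) and ΔadmAΔadmB (pyrG, admA and admB deleted). The labels of all 4 strains also carry pyrG+ and ligD+, so that these features are shared by control and deletion strains. Conidia were grown for 72 h at 30 °C in a 1 L flask with 76.5 g of wheat bran medium, and mRNA from the frozen, ground culture was sequenced on an Illumina GAIIx. The products of admA and admB belong to the ADAM metalloproteases, which are anchored in membranes. All libraries thus share 1 medium, temperature and age, and no statement here reaches beyond those.

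A reference gene is a transcript against which others are scaled, usually in quantitative PCR, to correct for unequal amounts of RNA or of cDNA. It serves that purpose only if its own level does not move with the condition, the strain or the culture. Genes of the cytoskeleton, glycolysis, translation and protein folding are the traditional choices in filamentous fungi, with actin and glyceraldehyde-3-phosphate dehydrogenase among the most used. Growth on a solid substrate makes a control of this kind useful, since fungal biomass cannot readily be separated from the bran. As defined above, RPKM sets a gene's reads against all mapped reads, so a steady RPKM would mean a steady share of those reads. How mapped reads were totalled for the deposited values is not stated in the sources used here. A lower amount of hyphae and less RNA per hypha cannot be told apart in these data.

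The sum of RPKM per library ran from 3974009 to 5401733, the 20 most abundant genes took 17.8% to 34.5% of it, and 655 to 1260 genes were listed at 0. Depth in reads is unknown; the relative depth read from the steps of low values spanned an estimated 2.15 times and may be off by a factor of 2 for some libraries. By those steps the libraries also fall into 2 technical sets of 12 and 8, which no label names and whose origin is unknown. The strains are spread unevenly over them: set 2 held 3 libraries of the control, 2 of ΔadmA, 1 of ΔadmB and 2 of ΔadmAΔadmB. The deleted gene admA (locus AO090138000114) had a value of 0 in every ΔadmAΔadmB library and in 4 of 5 ΔadmA libraries. Of the strains that keep it, 4 of 5 control libraries and all 5 of ΔadmB had values above 0. Its level there was low, at 0 to 14.2 RPKM in the control and 0.208 to 3.42 in ΔadmB, so a 0 alone says little about the deletion. No value is given here for admB. Nothing in the labels states that the 5 libraries are separate cultures, so every SD and p-value measures the spread between libraries, which may be technical.

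The SD of the 200 ran from 0.089 to 0.18 with a median of 0.16, against a median of 0.64 and a highest value of 5.96 over all 7134 genes. An SD at the upper limit of the 200 corresponds to a factor of 1.14. On the linear scale their coefficient of variation was 6.45% to 14.0%, with a median of 11.3%, against a median of 43.1% over all 7134. The highest library exceeded the lowest by 1.23 to 1.81 times (median 1.53), and in all 200 it did so by less than 2 times. Over the 6953 of the 7134 genes that were above 0 in every library, that ratio had a median of 5.07, and 802 genes kept within 2 times. None of the 200 was listed at 0 in any library, whereas 181 of the 7134 were at least once.

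**Figure D1:**
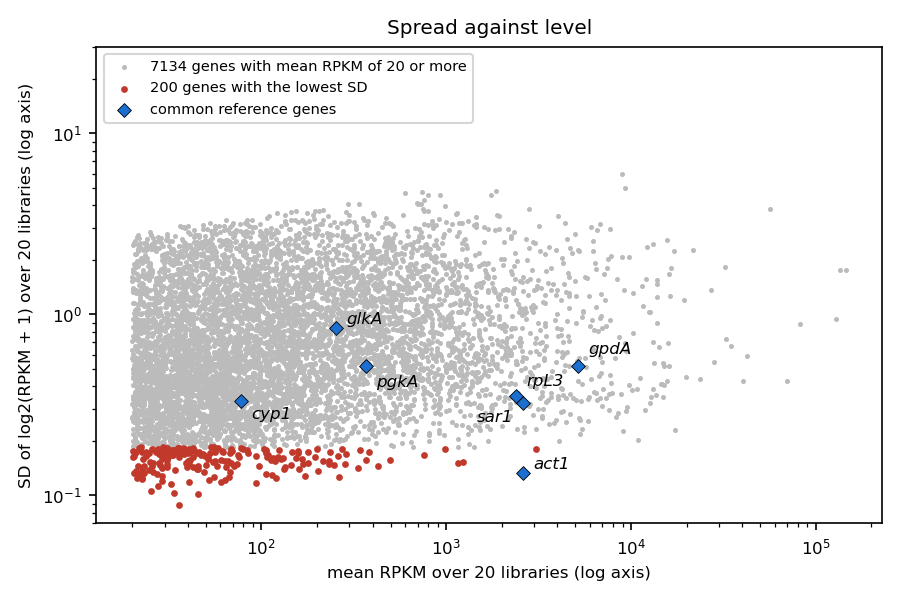
Each point is 1 gene: mean RPKM over the 20 libraries (log axis) against the SD of log2(RPKM + 1) over the same libraries (log axis), for 7134 genes in grey, the 200 in red and 7 common reference genes as diamonds. The 200 form the lower edge at an SD of 0.18 or less and crowd toward low levels, and act1, at a mean of 2605 RPKM, is the only one of the 7 diamonds among them.

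The steady genes were mostly genes of modest level. Their mean RPKM ran from 20.2 to 3069 with a median of 45.3 and quartiles of 29.5 and 107, against a median of 108 and quartiles of 45.2 and 349 over the 7134. Between 20 and 50 RPKM 107 of 2013 genes were members, which is 5.32%. The share was 2.67% between 50 and 100 RPKM, 2.49% between 100 and 300, 0.661% between 300 and 1000 and 0.529% from 1000 upward. In the last 2 bands it amounted to 8 of 1211 and 4 of 756 genes. Over all genes the median SD rose from 0.50 in the lowest band to 0.83 between 300 and 1000 RPKM, and was 0.72 from 1000 upward. Together the 200 made up 0.458% to 0.656% of a library's RPKM sum.

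The limits of the choice fell among near-equal values. The 200th gene, AO090701000796, had an SD of 0.18422 at a mean of 53.6 RPKM. The next gene, AO090026000516, had 0.18423 at a mean of 1419 RPKM. At the limit on level, the lowest member, AO090003001076, had a mean of 20.2 RPKM, and AO090102000164, with an SD of 0.16, missed the limit at 19.9 RPKM.

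Of the 200, 22 carry a symbol in the RefSeq table of assembly ASM18445v3 (11.0%, against 603 of the 7134, or 8.45%); no other source for the symbols was used. The other 178 are known here only by their locus tags, and no role is given to them. The 22 are taken below by what they are known for. The steadiest gene of all, AO090020000086, has no symbol. It was at 34.2, 37.1, 38.4, 36.9 and 35.2 RPKM in control replicates 1 to 5, at 35.2, 37.1, 37.0, 34.0 and 33.6 in ΔadmA, at 34.5, 35.6, 34.2, 35.2 and 34.3 in ΔadmB and at 33.1, 34.2, 40.2, 40.3 and 40.6 in ΔadmAΔadmB. The 4 strains overlapped, and the lowest and the highest of the 20 values both came from ΔadmAΔadmB. AO090009000079, the second by SD (0.10), had a mean of 45.5 RPKM.

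The genes of the cytoskeleton gave the most abundant member with a symbol. act1 (AO090701000065, rank 27 by SD) encodes actin, the subunit of the microfilaments that guide growth at the hyphal tip. It was at 2262, 3123, 2389, 2517 and 2708 RPKM in the control, at 2406, 2750.4, 2581, 2434 and 2666 in ΔadmA, at 2587, 2978, 2441, 2572 and 2729 in ΔadmB and at 2775, 2861, 2132, 2735 and 2451 in ΔadmAΔadmB. Control replicate 2 was the highest and ΔadmAΔadmB replicate 3 the lowest, and the 4 strains overlapped throughout. The strain means were 2599.7 ± 336 (SD, n = 5), 2568 ± 147, 2661 ± 205 and 2591 ± 299 RPKM in that order, a range of 0.050 on the log2 scale, less than the SD of any strain. pan1 (AO090026000829, SD 0.17, mean 68.1 RPKM), which in budding yeast acts with actin at sites of endocytosis, ranged from 49.7 RPKM in ΔadmB replicate 4 to 83.2 in ΔadmA replicate 3. Of the 12 cytoskeletal genes with a symbol at 20 RPKM or more, these were the 2 members. The septin gene aspA followed at rank 278, with an SD of 0.20 at a mean of 643 RPKM.

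At the cell surface, utr2 (AO090120000279, rank 32), named after a transglycosidase that links chitin to glucan in the wall of budding yeast, was steady at a middling level. It was at 189, 226, 181, 194 and 214 RPKM in the control and at 181, 171, 199, 209 and 219 in ΔadmA. In ΔadmB it was at 217, 227, 199, 188 and 195, and in ΔadmAΔadmB at 231, 184, 193, 228 and 233. All 4 strains covered much the same range, from 171 to 233 RPKM over the 20 libraries. It was the only member among 27 cell-wall genes with a symbol, whose median SD was 0.50. ecm33, which encodes a cell-wall protein in budding yeast, came next at rank 322 (SD 0.20, mean 1161 RPKM).

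The list of mitochondrial and respiratory genes held phb1 and mmm1. phb1 (AO090012000533, rank 49) encodes a prohibitin, a scaffold of the inner membrane. It was at 166, 156, 129, 111 and 125 RPKM in the control, where it spread most, and at 128, 135, 133, 129 and 117 in ΔadmA. In ΔadmB it was at 123, 149.5, 143, 152 and 129.6, and in ΔadmAΔadmB at 139, 149, 125, 129 and 130.4. The control held both its lowest and its highest value, so that no strain stood outside it. mmm1 (AO090701000106, rank 91), part of the complex that tethers mitochondria to the endoplasmic reticulum, lay lower, at 18.7 to 28.0 RPKM with a mean of 23.0. These were 2 of 15 mitochondrial and respiratory genes with a symbol, whose median SD was 0.56.

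Chromatin and RNA processing supplied 5 members. set1 (AO090003000002, rank 73), the methyltransferase of histone H3 lysine 4, was at 27.0, 29.2, 29.0, 28.4 and 25.0 RPKM in the control and at 29.9, 31.7, 29.9, 24.8 and 25.3 in ΔadmA. It was at 28.4, 29.9, 29.6, 20.1 and 30.2 in ΔadmB and at 27.4, 29.4, 32.4, 25.4 and 27.8 in ΔadmAΔadmB. ΔadmB replicate 4 stood alone at the bottom, and the other 19 libraries ran together from 24.8 RPKM upward. nap1 (AO090009000708, rank 118), a chaperone of histones H2A and H2B, was far more abundant, at 690, 704, 659.9, 672 and 816 RPKM in the control, 687, 705, 755, 721 and 871 in ΔadmA, 737, 774, 824, 864 and 943 in ΔadmB and 679.6, 742, 681, 680.2 and 961 in ΔadmAΔadmB. Replicate 5 was the highest in each strain. rpdA (AO090120000248), a histone deacetylase, had an SD of 0.17 at a mean of 31.1 RPKM. The 18 chromatin genes with a symbol had a median SD of 0.31, and these 3 were the members among them.

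cwc26 (AO090011000095, rank 14), named after a protein of the spliceosome, was the second steadiest gene with a symbol on the deposited scale and one of the least abundant, at a mean of 22.8 RPKM. It was at 23.1, 21.8, 21.5, 24.4 and 22.5 RPKM in the control, at 23.9, 21.1, 24.3, 18.9 and 25.2 in ΔadmA, at 23.7, 22.1, 23.4, 22.3 and 19.0 in ΔadmB and at 21.3, 25.2, 25.8, 20.4 and 25.0 in ΔadmAΔadmB. Single libraries of 2 strains went down to about 19 RPKM while the strain means stayed within 0.083 on the log2 scale. yth1 (AO090005000813), which in budding yeast takes part in forming the 3′ ends of mRNAs, had an SD of 0.17 at 33.1 RPKM. Among the 12 splicing and RNA-processing genes with a symbol the median SD was 0.33, and cwc26 was the only member; that list did not hold yth1.

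In protein turnover, pre6 and cdc48 were members. pre6 (AO090102000273, rank 108) encodes an alpha subunit of the proteasome core and ranged from 90.9 RPKM in ΔadmA replicate 4 to 141 in control replicate 2. cdc48 (AO090102000107, rank 174), the AAA ATPase that extracts ubiquitinated proteins, ranged from 258 RPKM in control replicate 5 to 431 in ΔadmA replicate 2, so that it was near the limit of the choice. They were 2 of 20 proteasome and ubiquitin genes with a symbol. pup3, a beta subunit of the core, was steady at a higher level (rank 245, SD 0.19, mean 1322 RPKM), but the subunits did not share 1 spread: pre5, another alpha subunit, had an SD of 0.58. pex4 (AO090701000381), the ubiquitin-conjugating enzyme of peroxisomal import, was a member at a mean of 195 RPKM and an SD of 0.16. The proteasome and ubiquitin list did not hold pex4.

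3 members with a symbol act in regulation or signalling. cpcA (AO090009000459, rank 77), the transcription factor of cross-pathway control of amino acid synthesis, was among the most abundant members. It was at 1421, 1343, 1145, 1372 and 1221 RPKM in the control, 1153, 1358, 1354, 1309.7 and 1392 in ΔadmA, 1121, 1153, 1021, 1042 and 1091 in ΔadmB and 1398, 1125, 1201, 1200.5 and 1382 in ΔadmAΔadmB. The ΔadmB values lay at the lower end, though the highest of them reached above the lowest control value; the strain means differed by at most 0.27 on the log2 scale. gpaA (AO090012000577), an alpha subunit of a heterotrimeric G protein, had a mean of 179.7 RPKM and an SD of 0.17. ptcG (AO090120000479), a protein phosphatase of type 2C, had a mean of 35.9 RPKM and an SD of 0.16. Of 18 kinases, small GTPases and other signalling genes on a list that held neither gpaA nor ptcG, none was a member. The steadiest of them, rho1, a small GTPase of wall synthesis and polarity, missed the choice at rank 303, with an SD of 0.20 at a mean of 10977 RPKM.

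The metabolic members with a symbol were single genes of separate pathways. cds1 (AO090012000953, SD 0.16, mean 115 RPKM), which in budding yeast makes the CDP-diacylglycerol from which phospholipids are built, ranged from 87.3 RPKM in ΔadmA replicate 4 to 143 in ΔadmAΔadmB replicate 3. hemA (AO090009000630), the 5-aminolevulinate synthase that opens haem synthesis, had a mean of 46.0 RPKM and an SD of 0.17. met2 (AO090701000235, SD 0.18, mean 68.6 RPKM), the homoserine acetyltransferase of methionine synthesis, ranged from 52.8 to 82.8 RPKM, and both ends lay in ΔadmA.

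The remaining symbols are nemA (AO090012000927), cp3 (AO090103000332) and rscE (AO090005000416), with means of 33.6, 426 and 93.1 RPKM. nemA had rank 3 of all genes by SD, at 0.10. It was at 33.7, 37.9, 33.1, 30.9 and 32.1 RPKM in the control, 29.9, 34.0, 34.2, 38.6 and 34.9 in ΔadmA, 32.4, 32.3, 33.7, 32.2 and 30.4 in ΔadmB and 31.6, 31.2, 35.2, 38.3 and 35.5 in ΔadmAΔadmB. The ΔadmB values lay closest together, inside the range of the control but for 1, and no strain stood apart.

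**Figure D2:**
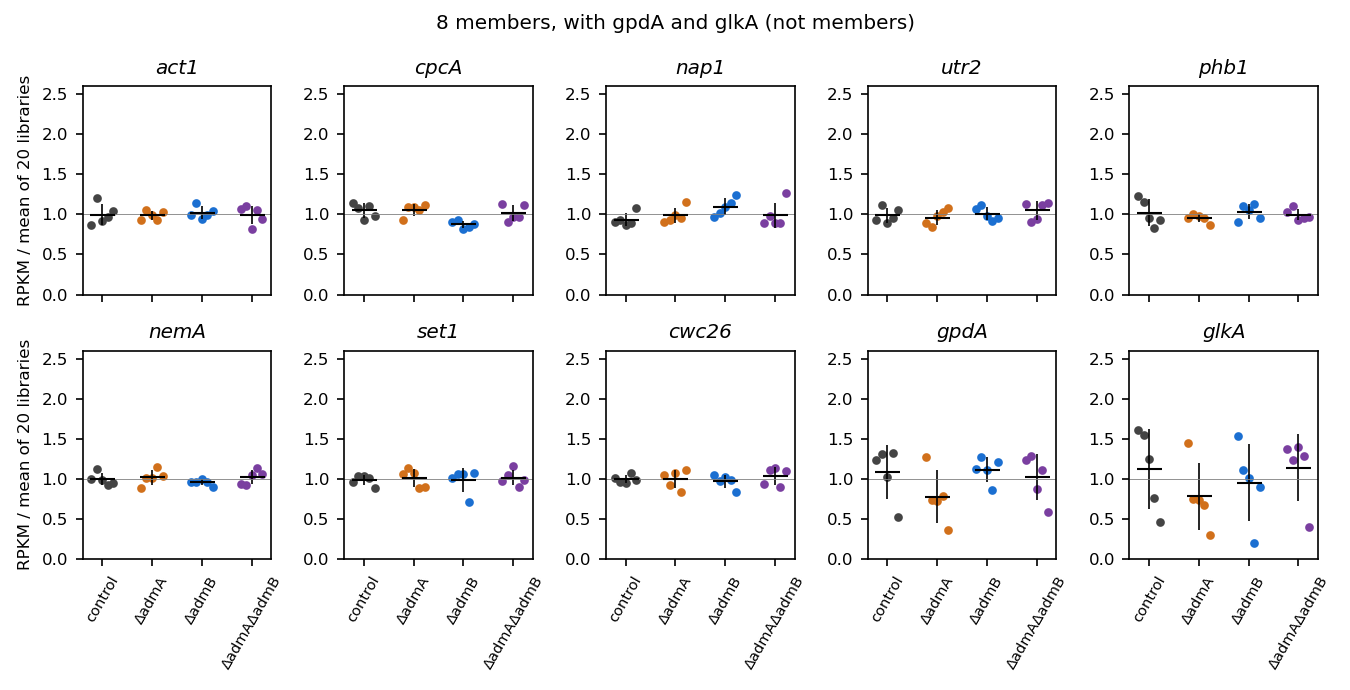
RPKM of each library divided by the gene's mean over 20 libraries (linear axis) for 8 of the 200 genes and for gpdA and glkA, which are not among them; points are libraries in order of replicate number, and bars are the strain mean ± SD (n = 5). The 8 stay close to 1 in every strain, with set1 lowest in ΔadmB replicate 4 and nap1 highest in ΔadmAΔadmB replicate 5. glkA spreads widely within each strain, and gpdA within each but ΔadmB, where its log2 SD was 0.22 against 0.24 for set1.

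The most abundant member of all, AO090011000940, has no symbol and a mean of 3069 RPKM (SD 0.18). It was at 2368, 2604, 2540.4, 3095 and 2636 RPKM in the control and at 3472, 3469.6, 3414, 2845 and 3214 in ΔadmA. In ΔadmB it was at 3059.6, 2961, 3398, 2981 and 3365, and in ΔadmAΔadmB at 2766, 3722, 2853, 3071 and 3535. The control was lowest in 4 of its 5 libraries, and its remaining value lay within the range of each deletion strain. AO090003000607 (SD 0.15, mean 1161 RPKM) was at 1241, 1257, 1113, 1137 and 1157 RPKM in the control, 1069, 1019.9, 1121, 1078 and 1077 in ΔadmA, 1191, 1141, 1172, 1673 and 1080.4 in ΔadmB and 1157, 1094, 1039, 1257 and 1149 in ΔadmAΔadmB. ΔadmB replicate 4 stood alone at the top, and without that library the SD was 0.087. Dividing each library by its RPKM sum raised the SD of AO090020000086 from 0.089 to 0.15, of nemA from 0.10 to 0.17, of cwc26 from 0.12 to 0.19 and of set1 from 0.15 to 0.24. It lowered that of AO090003000607 from 0.15 to 0.13 and of nap1 from 0.17 to 0.14; of 20 members examined under this scaling, 18 had a higher SD and 2 a lower one.

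Only the members with a symbol can be set beside lists of genes, which leaves 178 of the 200 without a place. Of the 22 with a symbol, 14 stood in 1 or more of 22 lists. Members made up 22 of the 603 genes with a symbol at 20 RPKM or more, 3.65%, and the list counts above, such as 3 of 18 for chromatin, 2 of 12 for the cytoskeleton and 1 of 27 for the cell wall, can be read beside that share. The cytoskeleton had the lowest median SD (0.27, 12 genes), followed by transcription and mediator (0.31, 10 genes), chromatin (0.31), translation factors (0.31, 7 genes), splicing (0.33) and ribosomal proteins (0.35, 5 genes). The transcription and mediator list had no member; its steadiest gene was ssn3, the kinase of the mediator complex, at rank 274. The translation factors had none either, and nip1, a subunit of the initiation factor eIF3, led them at rank 295. Other genes near the lower end of their lists without being members were med6 of the mediator (SD 0.25), cwc2 of the spliceosome (0.23), the ribosomal protein genes rps23 (0.26) and rpl17 (0.29) and dps1 (0.27), which in budding yeast charges transfer RNA with aspartate. In the signalling list mpkA, a mitogen-activated protein kinase, had 0.24, and in the sterol list erg12, mevalonate kinase, had 0.21.

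The lists of the widest spread held no member. With a share of 3.65% over genes with a symbol, lists this short can hold none, and nothing is read from it. Secreted hydrolases, the enzymes for which koji is used, had a median SD of 1.19 over 14 genes, from lap1, a leucine aminopeptidase (SD 0.26), to pgxB (1.71); xlnR, which the list holds as the regulator of xylan-degrading enzymes, had 0.39. Secondary metabolism followed at 1.12 over 6 genes. The cell cycle list (0.74, 9 genes) and ribosome biogenesis (0.69, 17 genes) also lay above the 0.64 of all genes. Their steadiest genes were cpa1 (0.44) and nrps1 (0.79) in secondary metabolism, nimT and cdc31 (0.39 each) in the cell cycle, and drs1 (0.35) and erb1 (0.40) in ribosome biogenesis. Between these ends, and with no member, were vesicle traffic (0.44, 7 genes), chaperones (0.48, 7 genes), autophagy (0.51, 4 genes), glycolysis and carbon metabolism (0.52, 6 genes) and signalling (0.59, 18 genes), and nic96 (0.52) was the only gene of the nuclear pore with a symbol. They were led by sec17 (0.26) in vesicle traffic, hsp90 (0.38) and hsp88 (0.43) among the chaperones, atg11 (0.19) and atg2 (0.48) in autophagy and facB (0.32) and fbp1 (0.38) in carbon metabolism. Sterol and lipid synthesis (0.47, 21 genes) had cds1 alone. Amino acid and nucleotide synthesis (0.53, 20 genes) had cpcA and met2. The medians are descriptions of genes that happen to have a symbol, and no list was tested.

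**Figure D3:**
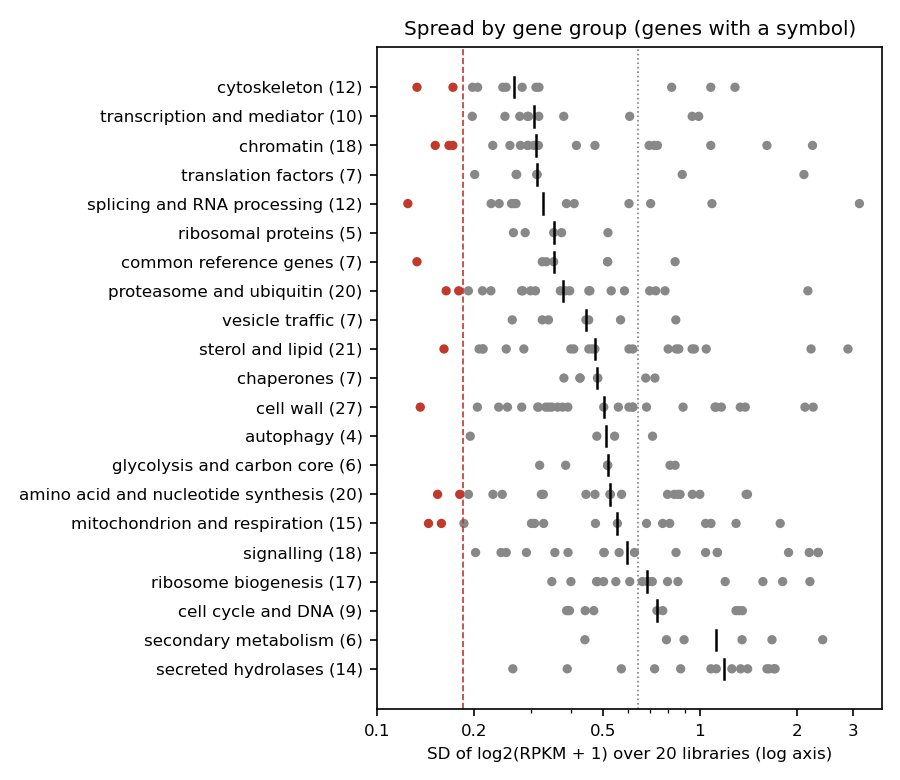
SD of log2(RPKM + 1) over 20 libraries (log axis) for genes with a symbol and a mean of 20 RPKM or more, by list, with the number of genes in brackets. Points are genes (red for the 200), black bars list medians, the dashed line the upper limit of the 200 at 0.18 and the dotted line the median of 7134 genes at 0.64; the medians run from 0.27 for the cytoskeleton to 1.19 for secreted hydrolases.

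The common reference genes can be judged by the same measure, since the 7 with such a symbol were taken by symbol and not by value. act1, at rank 27, was the only member. sar1, a GTPase of vesicle budding, had an SD of 0.32 (rank 1380), cyp1, a cyclophilin, 0.33 (rank 1460), and rpL3, a ribosomal protein, 0.35 (rank 1603). The glycolytic genes spread more: gpdA, glyceraldehyde-3-phosphate dehydrogenase, and pgkA, phosphoglycerate kinase, both had 0.52 (ranks 2852 and 2854), and glkA, a glucokinase, had 0.84 (rank 4324).

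gpdA was at 6378, 6769, 5256, 6805 and 2704 RPKM in the control, 6589, 3803, 3740.0, 4088 and 1874 in ΔadmA, 5798, 6593, 5719, 4440 and 6208 in ΔadmB and 6387, 6622, 4514, 5730 and 3037 in ΔadmAΔadmB. Replicate 5 was the lowest in every strain but ΔadmB. glkA was at 409, 395, 316, 195 and 119 RPKM in the control, 369, 189.7, 188, 171 and 77.4 in ΔadmA, 391, 283, 258, 52.8 and 229 in ΔadmB and 348, 315, 357, 329 and 101 in ΔadmAΔadmB, so that its highest library held 7.74 times its lowest. act1 was within 1.47 times in the same libraries.

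Tests between strains are open for the 6 common reference genes that were not chosen by their spread. limma was fitted to log2(RPKM + 1) of 10652 genes over all 20 libraries, two-sided, with Benjamini-Hochberg adjustment over those genes and a threshold of 0.05. None of their 30 comparisons (5 contrasts for each) passed, and 3 had an unadjusted p under 0.05. rpL3 was lower in ΔadmAΔadmB than in ΔadmB by a log2 difference of -0.65 (SE 0.20, unadjusted p = 0.0038, adjusted p = 0.80). cyp1 was higher in ΔadmB than in the control by 0.45 (SE 0.17, unadjusted p = 0.016, adjusted p = 0.60). cyp1 was also higher in ΔadmAΔadmB than in ΔadmA, by 0.38 (SE 0.17, unadjusted p = 0.037, adjusted p = 0.41). gpdA was not among the 3: in ΔadmA against the control its difference was -0.51 (SE 0.32, unadjusted p = 0.12, adjusted p = 0.66). A difference that missed the threshold is not shown to be absent.

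The same fit gives the background for the members. In ΔadmA against the control 115 of 10652 genes were called, which is 1.08%, and none of the 200 was. In ΔadmAΔadmB against ΔadmA 189 genes were called, which is 1.77%, and again none of the 200. Both counts varied widely with the fit: they were 2 and 1 when only the 10 libraries compared were used, and ran from 23 to 304 and from 92 to 304 with 1 library left out. In ΔadmB against the control, ΔadmAΔadmB against the control and ΔadmAΔadmB against ΔadmB no gene was called, 0.0% in each, so that the members' 0 has nothing to be read against. At an unadjusted p under 0.05 limma counted 3, 6, 2, 2 and 4 of the 200 in ΔadmA, ΔadmB and ΔadmAΔadmB against the control and in ΔadmAΔadmB against ΔadmA and ΔadmB, where the share over all genes was 10.3%, 8.11%, 4.87%, 10.7% and 5.75%. Genes chosen for a low spread over all libraries cannot differ much between strains, so nothing is read from these counts. The median size of the log2 difference was 0.063, 0.076, 0.068, 0.068 and 0.082 among the 200 and 0.29, 0.31, 0.24, 0.28 and 0.26 over all tested genes.

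Libraries that took no part in the choice give a measure that the choice does not fix. The selection was repeated on the 15 libraries of 3 strains, and the spread of the 200 genes so chosen was taken in the 5 libraries of the strain left out. With the control left out, their median SD in the control libraries was 0.18, against 0.58 for all genes at 20 RPKM or more. With ΔadmA left out it was 0.16 against 0.53, with ΔadmB 0.16 against 0.53, and with ΔadmAΔadmB 0.17 against 0.56. Of the 200 chosen, 200, 199, 199 and 200 lay below the median SD of all genes in the strain left out, and 136, 114, 117 and 137 lay in its lowest 10%.

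**Figure D4:**
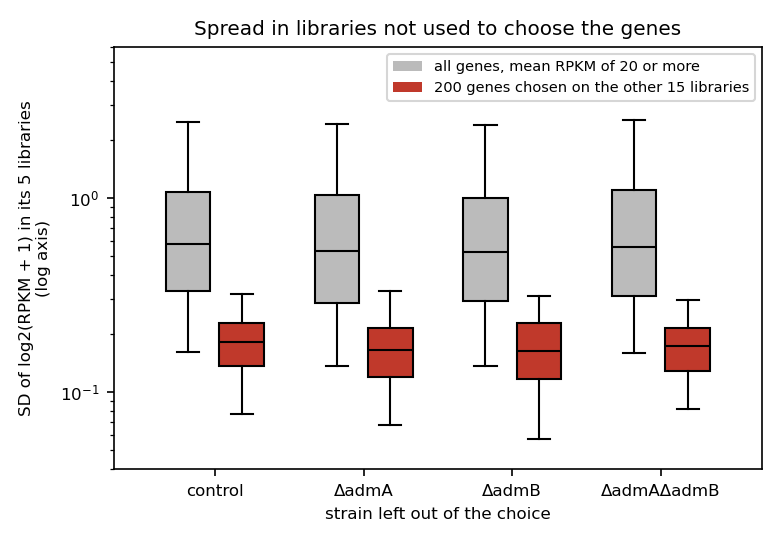
SD of log2(RPKM + 1) in the 5 libraries of the strain named on the horizontal axis (log axis), for all genes at a mean of 20 RPKM or more in grey and for the 200 genes chosen on the 15 libraries of the other strains in red. The medians of the chosen genes are 0.18, 0.16, 0.16 and 0.17, below the 0.58, 0.53, 0.53 and 0.56 of all genes.

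Their level carried over as well as their spread. Between the strain left out and the other 3 the chosen genes moved by a median of 0.061 for the control, 0.081 for ΔadmA, 0.11 for ΔadmB and 0.073 for ΔadmAΔadmB on the log2 scale. For all genes at 20 RPKM or more it was 0.22, 0.27, 0.28 and 0.20. The lists so chosen shared 157, 150, 139 and 164 genes with the 200, and 99 genes were chosen in all 4 rounds, all of them among the 200. Of these 99, 9 have a symbol: nemA, cwc26, act1, utr2, phb1, cp3, set1, cpcA and mmm1.

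Single genes failed in the libraries left out, and those named here were picked after their values were seen. AO090020000083 lay between 26.1 and 38.5 RPKM in the 15 libraries without ΔadmB. In ΔadmB it was at 4458, 40.1, 33.1, 38.8 and 33.0 RPKM, so that replicate 1 alone stood apart. AO090023000932 lay between 17.6 and 24.3 RPKM in the 15 libraries without ΔadmA and was at 26.1, 37.6, 46.5, 65.0 and 52.7 RPKM in ΔadmA, above that range in all 5. AO090010000221 lay between 3143 and 4599 RPKM outside ΔadmA and was at 1477, 1873, 2293, 5164 and 2535 RPKM in ΔadmA, below that range in 4 libraries and above it in 1. A gene that was steady in 3 strains was thus not always steady in the fourth.

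The strain left out, 3 other scalings, 2 other pseudocounts and 3 other measures of spread make 12 alternative lists of 200. 43 members stood in all 12, and 103 in at least 10. Other limits on level and each technical set alone are not among the 12, and they include those that changed the list most: a minimum mean of 100 RPKM shared 55 genes with the 200, no minimum shared 1, and set 2 alone shared 82. The 43 had means of 21.2 to 2605 RPKM and SDs of 0.089 to 0.16, and 5 of them have a symbol: nemA, cwc26, act1, phb1 and mmm1. Of these 5, only act1 and phb1 have a mean of 100 RPKM or more. utr2, cp3, set1 and pre6 stood in 11. gpaA stood in 4, cdc48 and met2 in 6 and pan1 and hemA in 7. The choice of act1 and phb1 did not turn on any 1 of the 12 settings, and that of gpaA did.

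A reference gene is used as a ratio, and the ratios among the members on average spread more than each gene alone. Over the 22 with a symbol, the SD of the log2 ratio to the other 21, averaged over partners, was lowest for nemA (0.19), act1 (0.20), cwc26 (0.20) and utr2 (0.20) and highest for ptcG (0.25). Against the 22 it was 0.37 for cyp1, 0.38 for rpL3, 0.39 for sar1, 0.55 for gpdA and pgkA and 0.85 for glkA. The tightest pair was nap1 with rpdA, whose ratio had an SD of 0.10, below that of either gene alone. Next came nap1 with rscE at 0.13, and nemA with utr2 and set1 with cdc48 at 0.14 each. Because the 22 share the choice, these values describe them and were not tested.

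As a group the 200 did not move as one. The mean correlation of log2 values between pairs of members over the 20 libraries was 0.078. It was above 0.5 in 6.74% of pairs and below -0.5 in 2.09%, as a description over libraries that each share 1 depth and 1 scaling. With libraries scaled by the median ratio the mean was 0.071. In the gene order of assembly ASM18445v3, 9 pairs of members were neighbours, 18 genes in all, among them utr2, pan1 and cds1, each beside a member without a symbol. Of the 200 genes with the highest SD (median 3.08), 29 were neighbours of another, in 16 pairs. The sources used here do not state whether counting used strand, so reads of overlapping neighbours could not be told apart.

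The mean of the 200 showed how far a library scaled to them would be moved. Its shift from the mean of the 20 libraries ran from -0.075 in ΔadmA replicate 4 to 0.10 in ΔadmAΔadmB replicate 5, with an SD of 0.045. The median gene, over the 6953 with a mean of 20 RPKM or more and above 0 in every library, shifted by -0.095 to 0.098 (SD 0.056). The RPKM sum shifted by -0.17 to 0.27 (SD 0.13). The members are tied to the RPKM scale on which they were picked, so their small shift is fixed in part by the choice. Scaled to the mean of the 200, limma called 122 genes in ΔadmA against the control and 192 in ΔadmAΔadmB against ΔadmA, in place of 115 and 189. None of the 200 was among the calls.

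**Figure D5:**
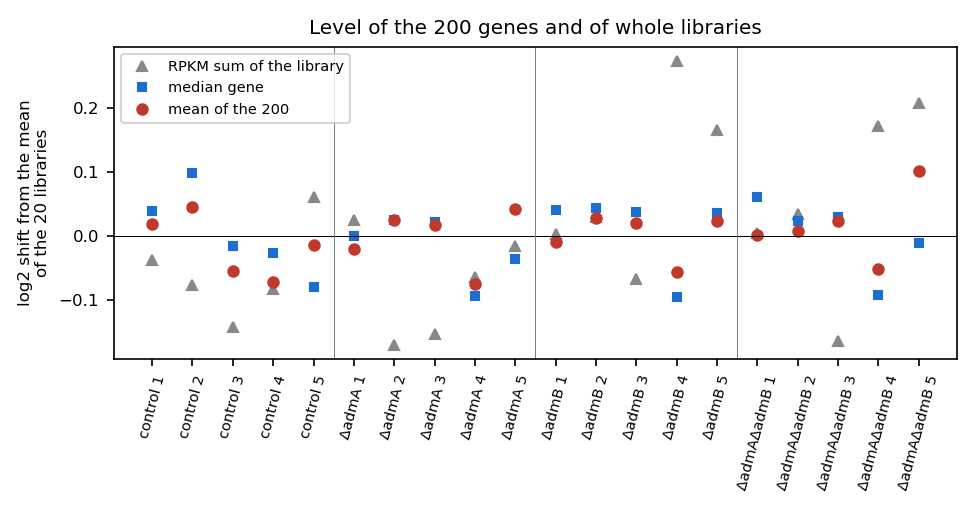
Log2 shift of each library from the mean of the 20 libraries, for the mean of the 200 genes (circles), the median gene (squares) and the RPKM sum (triangles). The median gene is over the 6953 genes with a mean of 20 RPKM or more and above 0 in every library. The circles stay between -0.075 and 0.10, while the triangles run from -0.17 to 0.27, with ΔadmB replicate 4 highest.

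Every library was the highest for some member and the lowest for others, with unequal counts. ΔadmB replicate 4 was the lowest library for 39 of the 200 and the highest for 17, and ΔadmAΔadmB replicate 5 was the highest for 39 and the lowest for 5. ΔadmA replicate 5 was the highest for 25, and ΔadmA replicate 4 and control replicate 4 were the lowest for 23 and 21. The first pair were also the libraries with the largest RPKM sums, 5401733 and 5163347. Without ΔadmB replicate 4 the SD of set1 was 0.11 in place of 0.15 and that of AO090003000607 0.087 in place of 0.15. Without ΔadmAΔadmB replicate 5 that of nap1 was 0.15 in place of 0.17. Between the technical sets, the log2 difference of set 2 from set 1 ran from -0.17 to 0.21 with a median of 0.0013, while over the 7134 genes it ran from -11.7 to 4.05. Within set 1 the median SD of the 200 was 0.17, against 0.66 over all 7134, and within set 2 it was 0.13 against 0.48. A low SD over all 20 libraries limits both the difference between sets and the SD within them, so nothing is read from these values. For the gene set1 the difference was 0.17, above its SD of 0.15, and the same choice made on set 2 alone shared 82 genes with the 200.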

How the data were processed

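mRNA was sequenced from 20 libraries of Aspergillus oryzae, 5 from each of 4 strains, grouped by the strain and replicate number in their titles. Per the file headers, the deposited values are RPKM per gene, which the authors scaled for gene length and mapped reads. The tools named, per the submitters' processing notes, are TopHat2 2.0.9, Cufflinks 2.1.1, CASAVA 1.8.2 and FastQC 0.10.1. What each tool did, the genome build, the annotation and the use of strand in counting were not given in the sources used here. The depth in reads is unknown, so no interval of counting error is given and no count model was fitted. RPKM depends on the most abundant genes of a library, and a change in those moves every other gene.

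From the RPKM values the mean and the SD of log2(RPKM + 1) over the 20 libraries were computed, and the 200 genes with the lowest SD were taken from those with a mean of at least 20. The members, gene lists and tests were chosen with earlier results of these data known. Lists were made by symbol, and entries seen to be wrong matches of a pattern were removed after the matches were seen. cpa1 was kept in the secondary metabolism list without its role being known. Each of the 12074 identifiers was found among the locus tags of RefSeq's table for assembly ASM18445v3, where 714 have a symbol. Only symbols and gene order were taken from it.

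Strain contrasts used limma 3.58.1 in R 4.3.3 (1 mean per strain, empirical Bayes with trend, two-sided, Benjamini-Hochberg over the 10652 genes that reached 1 RPKM in 5 or more libraries, threshold 0.05). Empirical Bayes draws each gene's variance toward that of genes of similar level, which raises it for genes of low spread. A call among the 200 is thus made less likely by the fit as well. Fold changes on the log2(RPKM + 1) scale understate those of low genes. The choice and the fit were tested on simulated data. Tables and figures were made with Python 3.11.15, pandas 2.3.3 and matplotlib 3.10.9.

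Named with values are the 10 steadiest members with a symbol, the 3 highest and the 3 lowest of them by level, the 2 steadiest genes of each list, every common reference gene, the last gene inside the choice and the first outside it, and the 2 steadiest and 2 most abundant members without a symbol. The remaining members with a symbol, the genes at the limit on level, pre5, pgxB and those steady in 3 strains but not in the fourth were named after their values were seen. Alternatives were other scalings (RPKM sum, median ratio, upper quartile), pseudocounts, limits on level, measures of spread, each library left out, each strain left out, each technical set alone, and a block for replicate number. No sequence is printed.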

Additional observations from a re-analysis of the deposited data

Results flagged for a closer look

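The 116 groups looked at were sets of 5 libraries: the named genes and the library shifts, strain by strain. In each, the highest or lowest library was compared with the nearest of the others. In 8 groups it lay apart by more than 0.71 of the group's range. For independent groups chance gives about 1 in 20, or 5.8 of 116. These groups share libraries, and most of the genes were chosen for a low SD over them. The 8 therefore cannot be judged against 5.8, and the values below are descriptions. 4 of the 8 fell in ΔadmB replicate 4. There set1 was low, at 20.1 RPKM against 28.4 to 30.2 in the other 4 ΔadmB libraries, and cdc48 was low, at 273 against 337 to 361. AO090003000607 was high there, at 1673 RPKM against 1080.4 to 1191. In the same library the median gene was shifted by -0.095 on the log2 scale, against 0.036 to 0.043 in the other 4. That median was taken over the 6953 genes with a mean of 20 RPKM or more that were above 0 in every library.

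ΔadmAΔadmB replicate 5 held 3. nap1 was high, at 961 RPKM against 679.6 to 742 in the other 4 libraries of that strain, sar1 was low, at 1974 against 2548 to 2742, and glkA was low, at 101 against 315 to 357. Control replicate 5 held 1, again nap1, at 816 RPKM against 659.9 to 704.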

How the results depend on the processing

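The list of 200 depended most on the limit on level. A minimum mean of 100 RPKM left 55 shared genes and a median SD of 0.21, and no minimum left 1 and 0.060. Dividing by the RPKM sum left 110 shared genes (median SD 0.18), the median absolute deviation 105, and technical set 2 alone 82 (0.10); a pseudocount of 10 gave a median SD of 0.13. The median ratio and the upper quartile each left 163. With 1 library left out, 161 to 194 genes were shared and the median SD was 0.15 to 0.16; the fewest shared came without ΔadmB replicate 4. The median SD in strains left out of the choice ran from 0.13 to 0.21 over 7 alternatives.

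The share of tested genes called was 1.08% (115) in ΔadmA against the control and 1.77% (189) in ΔadmAΔadmB against ΔadmA. It was 0.757% (54) and 1.36% (97) with a minimum mean of 20 RPKM, where fewer genes were tested, and 0.0188% (2) and 0.00939% (1) in a fit of only the 10 libraries compared. With 1 library left out it ran from 0.217% to 2.86% (23 to 304) and from 0.866% to 2.86% (92 to 304), highest without ΔadmA replicate 1 and lowest without ΔadmA replicate 3 in both. The other contrasts ran from 0.0% to 0.00942% (ΔadmB against the control, ΔadmAΔadmB against ΔadmB) or to 0.0188% (ΔadmAΔadmB against the control). None of the 200 was called in any contrast under any of these alternatives.

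With a block for replicate number the same shares were 1.89% and 2.71% (289). Same-numbered libraries of different strains deviated together unevenly (30 pairs, correlations of -0.23 to 0.50, median 0.15, 19 over 0.1). Pairs of replicate 1 ran from 0.23 to 0.41, and those of replicate 4 from -0.23 to 0.28. 4 of 20 libraries correlated best with their own number in every other strain. The labels do not say whether the numbers pair the libraries, and the main fit does not pair them. Whether same-numbered libraries share a source of spread was not tested. Of 675 SDs of single genes under the alternatives, 36 moved by more than their standard error. For each gene 20 of these left out 1 library and 5 were other alternatives, so the pooled count says little about scaling. Division by the RPKM sum moved most of the 20 members examined, such as act1 (0.13 to 0.16), cpcA (0.15 to 0.23) and cdc48 (0.18 to 0.26). Those it did not move were utr2, pre6, AO090011000940, AO090003000607 and AO090701000796. The cause of these changes was not tested. Depth limits the genes near 20 RPKM most, by an amount that cannot be given without read counts.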
